A study of Rattus norvegicus with 6 samples.

Results

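The genes described here encode the platelet-derived growth factors (PDGFs) and their receptors: the ligands Pdgfa, Pdgfb, Pdgfc and Pdgfd and the receptor tyrosine kinases Pdgfra and Pdgfrb. They were taken by symbol from the deposited table of read counts, as 6 of its 26195 rows with a gene name. Bulk RNA-seq had been carried out on 6 mammary tumors of female F344 rats, an inbred strain used in aging research, in which tumors 102, 107 and 116 grew in older hosts and tumors 157, 158 and 167 in younger hosts, so that each age group has 3 tumors. Older rats came from the National Institute on Aging colony at 19 to 21 months of age and younger rats from a commercial supplier at 6 to 8 weeks, so that age and source cannot be told apart. These were ages on receipt, and the rats were housed for a further period before treatment. Rats of both groups carried a subcutaneous 50 mg pellet of medroxyprogesterone acetate (MPA, a progestin; release over 90 days) and received a single gavage of the carcinogen 7,12-dimethylbenz[a]anthracene (DMBA) at 65 mg per kg. There is 1 library for each tumor and no tissue from untreated rats, the younger tumors are all that formed in that group, and the older ones were those with adequate tissue. The question addressed is whether the age of the host is reflected in the RNA of the PDGF system in these carcinogen-induced tumors.

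PDGFs are dimeric growth factors that act mainly from one cell type on another, with epithelial, endothelial and immune cells as sources and fibroblasts, pericytes and smooth muscle cells as the responding cells. The A, B and C chains bind receptor alpha and the B and D chains bind receptor beta, and ligand binding pairs the receptor chains, which phosphorylate each other and recruit signalling proteins. In the mammary gland and in breast tumors, receptor alpha is known as a marker of fibroblasts and of progenitors in the fat pad, and receptor beta of pericytes and fibroblasts around vessels.

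Values are in CPM, the count of a gene scaled by the library total and by edgeR's TMM factors. Totals over named genes ran from 3394451 to 6383983 counts per tumor, and 3 counts, taken as the floor of detection, correspond to between 0.528 and 1.03 CPM, for counting error only. Tumor 102 stood furthest from the rest, with a mean correlation of 0.829 with the other tumors in log2 CPM over 13139 tested genes, against 0.867 to 0.898 for the others, and each result is therefore also given without it where that matters. The tissue carried the markers of mammary epithelium throughout, as the summed level of 6 luminal epithelial markers, those of the 7 listed that had a row here, lay between 1392 and 1477 CPM in older and between 1789 and 2001 CPM in younger tumors. In bulk tissue, fewer cells of a type and less RNA per cell cannot be told apart.

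All 6 PDGF genes had enough counts to be tested, and none differed between the age groups at the threshold of 0.05 for the p-value adjusted over all 13139 genes (Benjamini-Hochberg) in the edgeR quasi-likelihood fit. That share is the same as across the transcriptome, where 0 genes or 0% passed. At an unadjusted p under 0.05 there was 1 member, Pdgfc, against 8.59% of all genes tested, and by DESeq2, run as an alternative, 0 of the 6 members passed against 2.47% of genes. The age groups overlapped in CPM for 6 of the 6 members, whereas they did not overlap for 12.1% of genes tested. The members had a median log2 fold change (older over younger) of 0.38, beside -0.0038 for all genes tested. Of the 6 members 5 were positive, as were 6523 of the 13139 genes tested. Some signs depended on single tumors. Pdgfd and Pdgfrb changed sign without tumor 102, Pdgfb without tumor 116 or 157, and Pdgfd also without tumor 157. Without tumor 102 the log2 fold changes were 0.98 (Pdgfc), 0.40 (Pdgfra), 0.023 (Pdgfa), -0.11 (Pdgfb), -0.26 (Pdgfd) and -0.74 (Pdgfrb).

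**Figure D1:**
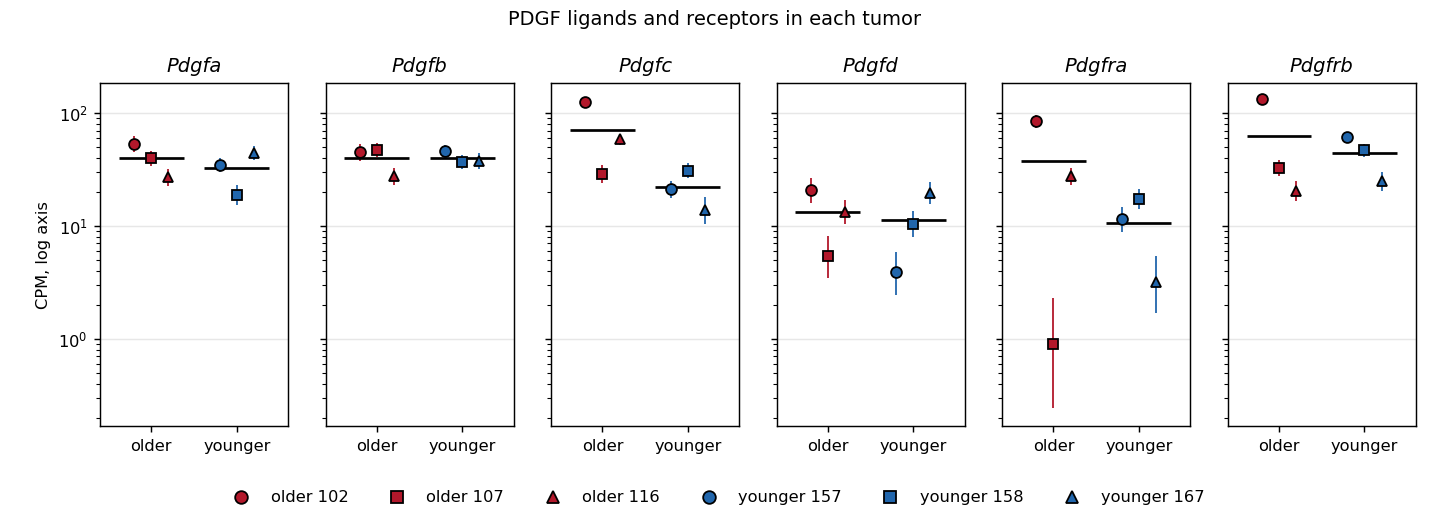
CPM (log axis) of each PDGF gene in the 3 older (red) and 3 younger (blue) tumors, with symbols for the tumors, vertical lines for 95% exact Poisson intervals of the count and horizontal bars for the group means. Older and younger tumors overlapped for each gene, and Pdgfra spanned the widest range, from 0.905 CPM in tumor 107 to 84.3 CPM in tumor 102.

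Pdgfc, whose product is secreted in a latent form and binds receptor alpha once its CUB domain is removed, showed the largest difference relative to its error. In older tumors it was at 125 CPM (tumor 102), 29.0 CPM (tumor 107) and 58.6 CPM (tumor 116). In younger tumors it was at 21.1 CPM (tumor 157), 31.0 CPM (tumor 158) and 13.8 CPM (tumor 167). The groups overlapped by a narrow margin, since the lowest older tumor (128 counts, 95% exact Poisson interval 24.2 to 34.4 CPM) and the highest younger tumor (172 counts, 26.5 to 36.0 CPM) could not be separated by counting error. Older tumors averaged 71.0 ± 49.4 CPM and younger tumors 22.0 ± 8.64 CPM (SD, n = 3 each). The log2 fold change between them was 1.68, and its standard error was 0.55. The 95% interval reached from 0.39 to 2.97, or from 1.31-fold to 7.86-fold for a fold of 3.21, and the adjusted p was 0.423 (edgeR, unadjusted p = 0.0171). By p-value Pdgfc was placed 532 among the 13139 genes tested. With each tumor left out in turn its log2 fold change stayed positive and ranged from 0.98 (without tumor 102) to 2.05 (without tumor 107), with adjusted p-values of 0.389 or more in edgeR's test. DESeq2 gave 1.66 with an adjusted p of 0.102, and when each tumor was left out in turn it called 0 members in 5 fits and 1 member in the fit without tumor 107, namely Pdgfc (log2 fold change 2.03, adjusted p = 0.0168).

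Pdgfra, which encodes receptor alpha, varied more from tumor to tumor than any other member. In older tumors it was at 84.3 CPM (tumor 102), 0.905 CPM (tumor 107) and 27.5 CPM (tumor 116). In younger tumors it was at 11.4 CPM (tumor 157), 17.5 CPM (tumor 158) and 3.19 CPM (tumor 167). The highest and the lowest value thus both came from older tumors, 93.2-fold apart, and the younger values lay between them. Tumor 107 had only 4 counts of Pdgfra (95% exact Poisson interval 0.247 to 2.32 CPM), and tumor 167 had 13 counts (1.70 to 5.46 CPM). The standard deviation of its log2 CPM over the 6 tumors was 2.13, at or above that of 99.3% of the genes tested. Group means were 37.6 ± 42.6 CPM and 10.7 ± 7.17 CPM (SD, n = 3 each). The log2 fold change of 1.79 was similar in size to that of Pdgfc, but its standard error was 1.18, the 95% interval reached from -0.97 to 4.54, and the adjusted p was 0.789 (edgeR). Without tumor 102 the log2 fold change was 0.40, and without tumor 107 it was 2.35. In limma-voom with all tumors it was 0.30, with an adjusted p of 0.989.

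Pdgfrb, which encodes receptor beta, was detected in every tumor at more than 100 counts. It was at 134 CPM (tumor 102), 32.8 CPM (tumor 107) and 20.5 CPM (tumor 116) in older tumors. It was at 61.6 CPM (tumor 157), 46.7 CPM (tumor 158) and 24.8 CPM (tumor 167) in younger tumors. Tumor 102 was the highest and tumor 116 the lowest of the 6, and tumor 107 lay among the younger tumors. The difference between the group means of 62.3 ± 62.1 CPM and 44.4 ± 18.5 CPM (SD, n = 3 each) was smaller than the spread among older tumors (log2 fold change 0.48 ± 0.69, standard error; edgeR adjusted p = 0.925). It rested on tumor 102, and the log2 fold change without that tumor was -0.74, with an adjusted p of 0.908 (edgeR). In limma-voom with all tumors it was -0.0058.

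Pdgfb, the chain that binds either receptor and that endothelial cells release to attract pericytes, was the most even of the members. It was at 45.2 CPM (tumor 102), 47.1 CPM (tumor 107) and 27.5 CPM (tumor 116) in older tumors. It was at 46.1 CPM (tumor 157), 36.7 CPM (tumor 158) and 37.6 CPM (tumor 167) in younger tumors. Tumor 116 had the lowest value, and the other 5 tumors lay within 36.7 to 47.1 CPM. The group means were nearly equal, at 39.9 ± 10.8 CPM and 40.2 ± 5.18 CPM (SD, n = 3 each), and the log2 fold change was -0.0099 ± 0.29 (standard error; edgeR adjusted p = 0.996). The 95% interval of the fold, 0.626 to 1.58, does not reach a 2-fold difference in either direction.

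Pdgfa, the chain that signals through receptor alpha alone, was at 53.1 CPM (tumor 102), 39.6 CPM (tumor 107) and 26.9 CPM (tumor 116) in older tumors. In younger tumors it was at 34.9 CPM (tumor 157), 18.9 CPM (tumor 158) and 44.5 CPM (tumor 167). The groups overlapped widely around means of 39.9 ± 13.1 CPM and 32.7 ± 12.9 CPM (SD, n = 3 each). The log2 fold change was 0.28 with a standard error of 0.39 (adjusted p = 0.923, edgeR), and the 95% interval of the fold was 0.646 to 2.29.

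Pdgfd, the second CUB-domain ligand, which binds receptor beta, was at 20.9 CPM (tumor 102), 5.43 CPM (tumor 107) and 13.4 CPM (tumor 116) in older tumors. In younger tumors it was at 3.87 CPM (tumor 157), 10.4 CPM (tumor 158) and 19.7 CPM (tumor 167). Each group spanned a wide range, 3.85-fold in older and 5.08-fold in younger tumors, and the ranges nearly coincided. Means were 13.2 ± 7.74 CPM and 11.3 ± 7.93 CPM (SD, n = 3 each), and the log2 fold change was 0.22 ± 0.67 (standard error; edgeR adjusted p = 0.972). Counts were 22 to 80 per tumor. The 95% interval of the fold was wide, from 0.393 to 3.47.

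**Figure D2:**
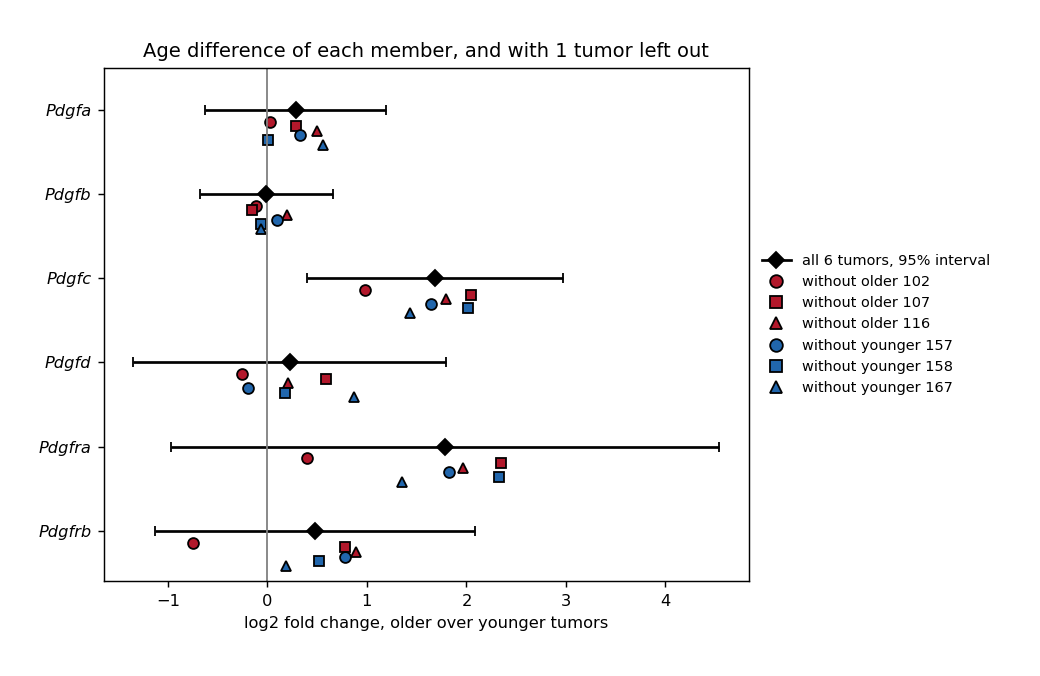
Log2 fold change (older over younger tumors) of each PDGF gene from edgeR, with diamonds and 95% intervals for the fit on all 6 tumors and coloured symbols below them for the 6 fits that each left out 1 tumor. Only the interval of Pdgfc, 0.39 to 2.97, lies above 0, and leaving out tumor 102 moved Pdgfrb from 0.48 to -0.74 and Pdgfra from 1.79 to 0.40.

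The proximal promoters are shown for the pair of members with the largest fold changes, Pdgfc and Pdgfra, and for the most even member, Pdgfb, as the 250 bases before the transcript start given by RefSeq on assembly GRCr8 (the counts were made on mRatBN7.2). A promoter was found in the table for 5 of the 6 members. Capitals mark matches on either strand to the GC box GGGCGG or the CCAAT box CCAAT; the TATA box TATAAA was also searched for. For Pdgfc (chr2:168614918-168615167, + strand) and Pdgfra (chr14:33408517-33408766, - strand) this start lies inside the span annotated for the gene, so that other transcripts start further upstream.
Pdgfc: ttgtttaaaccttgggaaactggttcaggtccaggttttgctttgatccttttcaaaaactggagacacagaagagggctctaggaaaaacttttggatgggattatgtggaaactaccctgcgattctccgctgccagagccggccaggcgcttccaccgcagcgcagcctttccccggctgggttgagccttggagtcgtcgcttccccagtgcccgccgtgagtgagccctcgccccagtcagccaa
Pdgfra: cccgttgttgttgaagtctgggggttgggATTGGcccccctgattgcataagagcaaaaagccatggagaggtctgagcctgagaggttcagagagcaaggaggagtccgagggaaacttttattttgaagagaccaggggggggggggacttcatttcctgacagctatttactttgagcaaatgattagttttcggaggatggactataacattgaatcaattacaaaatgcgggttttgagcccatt
Pdgfb (chr7:113438344-113438593, - strand): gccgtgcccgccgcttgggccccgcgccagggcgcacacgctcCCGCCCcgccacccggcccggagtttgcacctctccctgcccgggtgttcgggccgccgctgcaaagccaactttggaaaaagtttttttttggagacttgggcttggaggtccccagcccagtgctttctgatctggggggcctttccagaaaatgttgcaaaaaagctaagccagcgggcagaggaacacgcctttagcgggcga

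The Pdgfc window held none of these motifs, and the Pdgfra window held 1 CCAAT box, on the reverse strand 221 bases before the start. The Pdgfb window held 1 GC box, and so did those of Pdgfa and Pdgfd, each on the reverse strand. Among all 33469 promoters of the same length, 30.5% held a GC box, 34.0% a CCAAT box and 12.9% a TATA box. The GC content was 56.0% for Pdgfc, 47.2% for Pdgfra and 63.6% for Pdgfb, beside a median of 51.2% over all promoters. These matches describe letters in a window and not binding.

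The levels of the ligands and receptors were set against each other within each tumor, as log2 CPM of a gene minus that of another, which removes gene length and library scaling from the comparison between tumors. Pdgfra minus Pdgfrb was -0.66 (tumor 102), -4.63 (tumor 107) and 0.41 (tumor 116) in older tumors. It was -2.39 (tumor 157), -1.39 (tumor 158) and -2.80 (tumor 167) in younger tumors. Tumor 107, with receptor beta at an ordinary level and receptor alpha close to the floor, was the most extreme, and the difference between the groups was 0.57 on the log2 scale (two-sided exact permutation test, p = 0.9). The CUB-domain ligands, Pdgfd minus Pdgfc, were at -2.56, -2.33 and -2.10 in older tumors 102, 107 and 116. In younger tumors 157, 158 and 167 they were at -2.32, -1.53 and 0.50. Older tumors were close together, tumor 167 was the highest of the 6, and the group difference was -1.21 (exact permutation test, p = 0.2). The differences for Pdgfb minus Pdgfa (-0.35, p = 0.5), Pdgfb minus Pdgfrb (-0.15, p = 0.8) and Pdgfa minus Pdgfra (-0.37, p = 0.8) were also within the spread between tumors (exact permutation tests). After adjustment over 8 such comparisons, including those with marker scores given next, the p-values were 0.9, and with 3 tumors against 3 the smallest possible unadjusted p is 0.1.

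The receptors were then compared with markers of the cells known to carry them, using scores that are the mean log2 CPM of a marker list. The score of 10 fibroblast markers was 6.54 (tumor 102), 3.09 (tumor 107) and 5.08 (tumor 116) in older tumors. It was 5.26 (tumor 157), 5.69 (tumor 158) and 3.06 (tumor 167) in younger tumors. The tumors with the least Pdgfra, 107 and 167, were thus those with the lowest fibroblast scores, and tumor 102 was highest in both. The score was not separated by age (4.90 ± 1.73 in older and 4.67 ± 1.41 in younger tumors, SD, n = 3 each). The matrix proteoglycan Dcn, a fibroblast marker, was at 167 CPM in tumor 102, 2.26 CPM in tumor 107 and 63.0 CPM in tumor 116, and at 25.3, 26.7 and 4.18 CPM in tumors 157, 158 and 167.

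Over the 6 tumors, Pdgfra and the fibroblast score had a Pearson r of 0.94 (exact permutation test, p = 0.0111, adjusted p = 0.2 over 18 relations) and a Spearman rho of 0.77 (p = 0.103, adjusted p = 0.617). The scores fell into a pair of low tumors and 4 higher ones, and without tumors 107 and 167, the farthest from the median score, r was 0.79 over 4 tumors. For Pdgfrb and the same score, r was 0.71 (exact permutation test, p = 0.108) and rho 0.77 (p = 0.103), and r was 0.86 without tumors 107 and 167. With the score of the 8 of 9 mural cell markers that had a row (pericytes and vascular smooth muscle), Pdgfrb had an r of 0.20 (exact permutation test, p = 0.7) and a rho of 0.26 (p = 0.658), and without tumors 107 and 116 r was -0.35. Some of those markers, such as Myh11 and Cnn1, are also made by myoepithelial cells. Without tumor 102 the order was reversed, and Pdgfrb had an r of 0.46 with the fibroblast score and 0.63 with the mural cell score. None of the 18 relations passed 0.05 after adjustment.

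**Figure D3:**
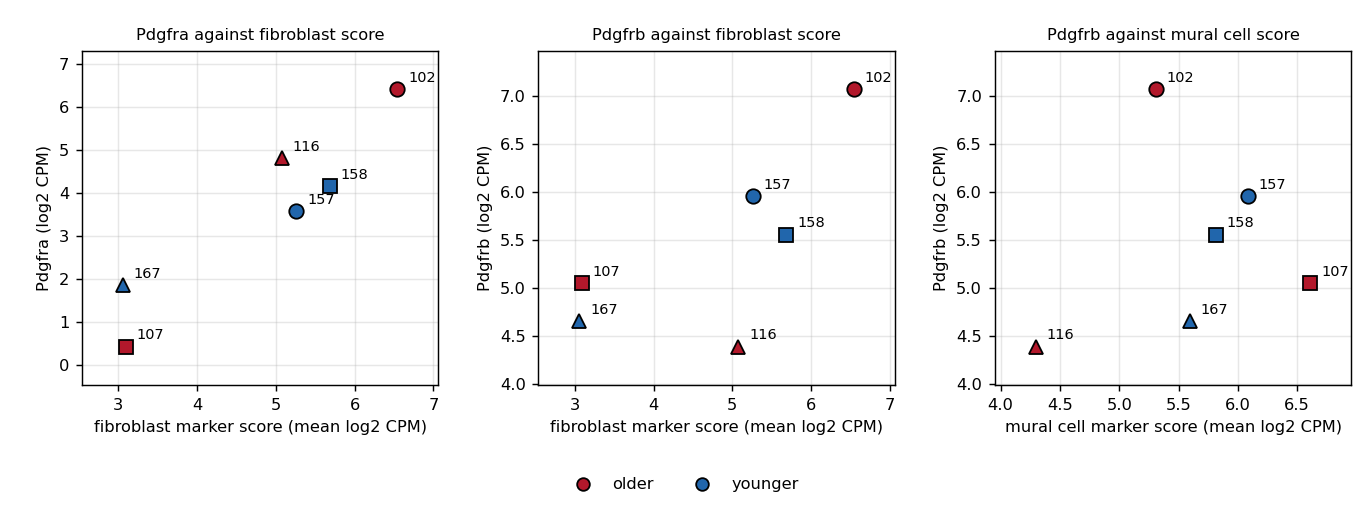
Log2 CPM of Pdgfra and Pdgfrb against marker scores (mean log2 CPM of the list) in the 6 tumors, red for older and blue for younger, with tumor numbers. In the left panel tumors 107 and 167 lie at the lower left, near a score of 3.1, and tumor 102 at the upper right, while the right panel shows tumor 102 with the highest Pdgfrb at a mural cell score of 5.31.

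Relative to these scores the receptors did not separate the age groups. Pdgfra minus the fibroblast score was -0.14 (tumor 102), -2.67 (tumor 107) and -0.27 (tumor 116) in older tumors. It was -1.69 (tumor 157), -1.52 (tumor 158) and -1.20 (tumor 167) in younger tumors. The older values thus lay on both sides of the younger ones, with tumor 107 below and the other older tumors above them, and the difference of 0.44 had p = 0.7 (two-sided exact permutation test). Pdgfrb minus the fibroblast score differed by -0.12 (p = 0.9) and Pdgfrb minus the mural cell score by 0.54 (p = 0.7, exact permutation tests).

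The remaining cell types that could carry PDGF genes are given by the summed CPM of their markers. For 7 endothelial markers, those of the 8 listed that had a row, the sum was 105 to 388 CPM in older and 67.8 to 300 CPM in younger tumors. For 7 macrophage markers the sums were 368 to 384 CPM in older and 132 to 502 CPM in younger tumors, and the macrophage score was 5.13 ± 0.29 in older and 4.13 ± 0.42 in younger tumors (SD, n = 3 each). For 6 adipocyte markers, 4 of them tested, the sums were 40.1 to 289 CPM in older and 28.8 to 43.3 CPM in younger tumors, with tumor 102 the highest. For the 5 of 6 T cell markers that had a row, 2 of them tested, they were 16.1 to 85.8 CPM in older and 4.50 to 8.63 CPM in younger tumors. For the 6 markers of platelets and megakaryocytes, whose granules store PDGF, they were 1.99 to 6.86 CPM in older and 1.80 to 2.46 CPM in younger tumors. None of these markers was testable, and Ppbp, Gp1bb, Gp9 and Gp6 had 0 counts in some or all tumors. The 3 of 5 myoepithelial markers that had a row summed to 60.3 to 500 CPM in older and 450 to 901 CPM in younger tumors, and the 4 of 5 skeletal muscle markers that had a row (2 tested) to 5.98 to 54.1 CPM and 16.5 to 25.4 CPM. The age groups did not overlap in the macrophage score (4.79 to 5.34 in older and 3.65 to 4.40 in younger tumors), the T cell score (3.20 ± 0.90 and 1.37 ± 0.21, SD, n = 3 each) and the luminal epithelial score (7.41 to 7.78 and 7.90 to 8.14). Among the tested genes of these lists the groups did not overlap for 2 of 7, 2 of 2 and 3 of 6, beside 12.1% of all genes tested. Cd14, the most abundant macrophage marker, had a log2 fold change of -0.32. Tumor 102 had the highest value of every member except Pdgfb. It was also highest in the fibroblast, adipocyte, endothelial and macrophage scores and lowest in the myoepithelial score. Over the 6 tumors, Pdgfrb had a Pearson r of 0.81 with the adipocyte score, beside 0.71 with the fibroblast score. Without tumor 102 these were 0.26 and 0.46. Pdgfc had an r of 0.90 with the adipocyte score and Pdgfra of 0.79, and without tumor 102 these were 0.73 and 0.66. For Pdgfa, Pdgfb and Pdgfd it was 0.41, 0.23 and 0.33, and negative without tumor 102. The relations with the adipocyte score were picked after their values were seen. The part of these cell types in the PDGF values was not tested.

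Among themselves the members did not form a block across tumors. Pearson r between pairs of members ranged from -0.41 (Pdgfb and Pdgfd) to 0.76 (Pdgfc and Pdgfra) over the 6 tumors. For Pdgfc and Pdgfra the exact permutation p was 0.0792 (adjusted p = 0.650 over the 18 relations), rho was 0.83 (p = 0.0583), and r was 0.43 without tumors 102 and 167. For Pdgfb and its receptor gene Pdgfrb r was 0.64 (exact permutation test, p = 0.172) and rho was 0.49 (p = 0.356). The genes whose log2 CPM ran most nearly parallel to a member were searched among 11772 genes with a mean of at least 5 CPM, and with 6 tumors such a search returns high coefficients for any gene. The closest were Hdac5, Dcn and Slc4a4 for Pdgfra (r = 0.99, 0.99 and 0.98), Zfp516, Fkbp15 and F13a1 for Pdgfrb (0.997, 0.99 and 0.99), and Zfp846, Cyb5rl and Spring1 for Pdgfc (0.99, 0.99 and 0.98). For Pdgfa they were Csnk1g1, Gtf3c3 and Gpcpd1 (r = 0.99, 0.98 and 0.98), for Pdgfb Sppl3, Foxk1 and Catsperg (0.99, 0.98 and 0.96), and for Pdgfd Pcmt1, Gng12 and Lin7c (0.99, 0.99 and 0.99). Of these 18 genes, Dcn is also a member of the fibroblast list.

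The proteases that mature the ligands were measured with 7 genes. Of these 0 passed the adjusted threshold and 1 had an unadjusted p under 0.05, where the share over all genes tested was 8.59%. Furin, a proprotein convertase that trims the A and B chains inside the cell, was at 305, 250 and 332 CPM in older tumors 102, 107 and 116, below the 483, 551 and 414 CPM of younger tumors 157, 158 and 167. Its groups did not overlap, as for 12.1% of all genes tested (log2 fold change -0.71 ± 0.26, standard error; edgeR adjusted p = 0.481). Plau (urokinase, an activator of PDGF-D) had a log2 fold change of 0.52 and Plat (tissue plasminogen activator, which cleaves PDGF-C) of -0.74, with adjusted p-values of 0.706 and 0.745 (edgeR). The list had a median log2 fold change of -0.26.

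Of the 7 co-receptors and binding proteins, 5 were tested, 0 passed and 1 had an unadjusted p under 0.05, beside 8.59% of all genes tested. Sparc, a matricellular protein that binds the B chain, was at 181, 509 and 327 CPM in older tumors 102, 107 and 116. It was at 754, 826 and 590 CPM in younger tumors 157, 158 and 167 (log2 fold change -1.09 ± 0.40, standard error; edgeR adjusted p = 0.492). The groups did not overlap, as for 12.1% of all genes tested. Thbs1 (thrombospondin) and Cspg4 (the NG2 proteoglycan of pericytes) had log2 fold changes of -0.65 and -0.87, with adjusted p-values of 0.685 and 0.721 (edgeR). The list median was -0.65, and A2m and Pdgfrl, a receptor-like gene with 1 to 10 counts per tumor, were too low to be tested.

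Of 20 genes of the relay downstream of the receptors, 19 were tested and 0 passed. Only 1 had an unadjusted p under 0.05, beside 8.59% of all genes tested, and the median log2 fold change was 0.078. Nck1, an adaptor that docks on phosphorylated receptors, was at 82.4 ± 40.2 CPM in older and 40.0 ± 9.97 CPM in younger tumors (SD, n = 3 each; log2 fold change 1.04, adjusted p = 0.527, edgeR). Pik3r2 and Pik3cb, subunits of phosphoinositide 3-kinase, had log2 fold changes of -0.52 and 0.52 (adjusted p = 0.715 and 0.730, edgeR).

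Among 10 genes that attenuate receptor signalling, 0 passed the adjusted threshold and 3 had an unadjusted p under 0.05, all of them with higher means in older tumors, and the median log2 fold change was 0.55. The groups did not overlap for 4 of the 10, of which 3 were higher and Acp1, named after its values were seen, lower in older tumors (log2 fold change -0.33). Over all genes tested these shares were 8.59% for the unadjusted p and 12.1% for groups without overlap. Spry1, a feedback inhibitor of receptor kinase signalling, was at 29.5, 97.3 and 41.9 CPM in older tumors 102, 107 and 116 and at 27.3, 22.2 and 23.3 CPM in younger tumors 157, 158 and 167 (log2 fold change 1.21, adjusted p = 0.490, edgeR). Ptprj, a phosphatase that acts on PDGF receptors, had a log2 fold change of 0.76 (adjusted p = 0.491, edgeR), and Cblb, a ubiquitin ligase, of 0.93 (adjusted p = 0.569, edgeR), where tumor 102 at 184 CPM stood above the other tumors, which were between 52.8 and 91.7 CPM.

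Genes known to be induced by PDGF in fibroblasts gave 0 of 9 past either threshold, with a median log2 fold change of 0.25. Over all genes tested these shares were 0% for the adjusted and 8.59% for the unadjusted p. The groups did not overlap for 1 of the 9, Srf, beside 12.1% of all genes tested. Ccl2, a chemokine first described as a PDGF-induced gene, had a log2 fold change of -1.17 (adjusted p = 0.602, edgeR). The immediate early gene Fosb was at 421 CPM in tumor 102 and between 23.9 and 119 CPM in the other tumors (log2 fold change 1.59, adjusted p = 0.694, edgeR). Srf, a transcription factor in this response, had a log2 fold change of -0.35 (adjusted p = 0.786, edgeR).

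The nearest relatives of the PDGF system were the other class III receptor kinases with their ligands and the VEGF branch of the growth factor superfamily. Of these 15 genes 13 were tested, 0 passed the adjusted threshold, 3 had an unadjusted p under 0.05 with higher and 3 with lower means in older tumors, and the median was -0.29. The groups did not overlap for 5 of the 13, where the shares over all genes tested were again 8.59% for the unadjusted p and 12.1% for groups without overlap. Kit, a receptor close in sequence to receptor alpha, was at 245, 171 and 294 CPM in older tumors 102, 107 and 116 and at 36.6, 115 and 50.9 CPM in younger tumors 157, 158 and 167 (log2 fold change 1.81, adjusted p = 0.323, edgeR). Vegfa, the vascular growth factor, had a log2 fold change of -1.31 (adjusted p = 0.315, edgeR), and Csf1, the ligand of the macrophage receptor, of 1.11 (adjusted p = 0.342, edgeR). Whether the PDGF genes differ from these relatives in their age difference was not tested.

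**Figure D4:**
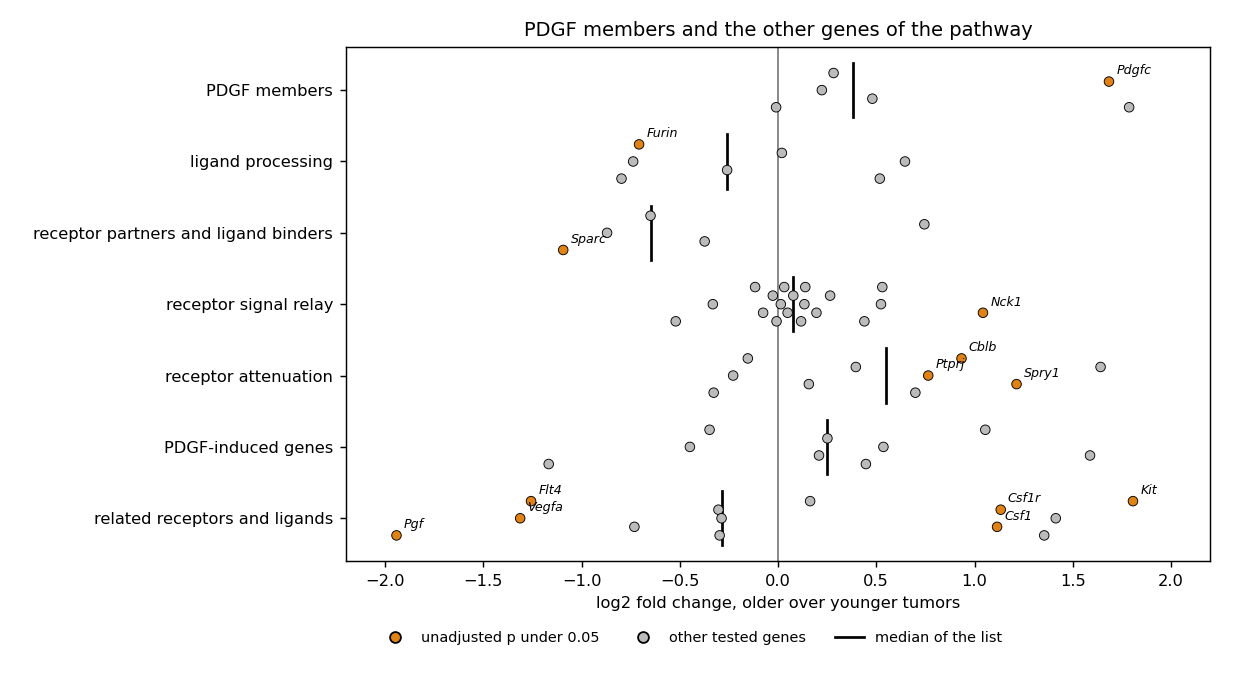
Log2 fold change (older over younger tumors) of every tested gene of the PDGF list and of 6 related lists, with orange points and names for genes with an unadjusted p under 0.05, grey points for the others and a black bar for the median of each list. The signal relay genes cluster around their median of 0.078, and the attenuation list has its median at 0.55.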

How the data were processed

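Bulk RNA-seq of 6 rat mammary tumors was used. Per the labels' protocol, libraries were made after depletion of ribosomal RNA and read as 150-base pairs, while other label fields give polyA RNA and 100 bases. The authors ran FastQC 0.11.7, Trimmomatic 0.38, STAR 2.7.9a and Picard 2.18.12, counted with HTSeq 0.13.5 on mRatBN7.2 per the submitters' processing notes, and deposited raw counts per gene. The annotation, the strand setting and the treatment of marked duplicates are not given in the sources used here. In RefSeq (GRCr8) the spans of Pdgfa, Pdgfc and Pdgfd, introns included, overlap those of other genes. Whether exons overlap, so that reads could be confused without strand, was not examined.

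Of 30562 rows, 4367 without a gene name, with 2.17% to 3.64% of the counts per tumor, were left out of totals and tests. Older and younger tumors were compared in R 4.3.3 with edgeR 4.0.16 (filterByExpr, TMM, quasi-likelihood test, no covariates) over 13139 genes. Standard errors come from the fold change and its F statistic. A prior count of 2 entered log2 CPM. For single values, exact permutation tests were two-sided. DESeq2 1.42.0, limma-voom (limma 3.58.1), other scalings and filters, and each tumor left out were alternatives. The scripts were tested on simulated counts in which 200 of 13139 genes were changed 2-fold, 4-fold or 8-fold. At the adjusted threshold 0%, 35.5% and 86% of these were recovered, so that a gene not called may still differ. P-values measure the spread between these tumors. Levels were not compared between genes, since transcript lengths were not used here.

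Members and gene lists were chosen with earlier results of these data known. Named are all members, from each pathway list the 3 genes with the smallest p, each cell type score, and the 3 genes with the highest Pearson r to each member. The correlations between members, the rows without a name kept and the DESeq2 fits without 1 tumor were added after seeing the data.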

Additional observations from a re-analysis of the deposited data

How the results depend on the processing

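No paired analysis was possible because no label ties an older to a younger tumor. The count of members past the threshold was 0 in edgeR under each scaling and filter tried, in limma-voom, in DESeq2 with all tumors, with rows without a name kept (a choice made after seeing the data) and in the 6 edgeR fits that each left out 1 tumor. With at least 10 counts in every tumor only 5 members could be tested, since Pdgfra has 4 counts in tumor 107. DESeq2 moved the count over all genes most, from 0 in edgeR (1129 at an unadjusted p under 0.05) to 353, with 238 higher and 115 lower in older tumors, and the cause was not tested. In limma-voom Pdgfrb changed sign (-0.0058) and Pdgfra moved from 1.79 to 0.30, and the cause was not tested.

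With 1 tumor left out, log2 fold changes changed sign for Pdgfb (-0.15 to 0.19), Pdgfd (-0.26 to 0.87) and Pdgfrb (-0.74 to 0.89), but not for Pdgfa (0.0074 to 0.56), Pdgfc or Pdgfra. Among log2 ratios the difference changed sign for Pdgfra minus Pdgfrb (-0.45 to 2.07), Pdgfb minus Pdgfrb (-0.51 to 0.52), Pdgfa minus Pdgfra (-2.12 to 0.66), Pdgfra minus the fibroblast score (-0.00047 to 1.27), Pdgfrb minus the fibroblast score (-0.80 to 0.52) and Pdgfrb minus the mural cell score (-0.29 to 1.37). A prior count of 0.5 changed no sign. The standard error of the log2 fold change was largest for Pdgfra, at 1.18, with 4 counts in tumor 107. It did not simply follow the counts. Pdgfrb, with 101 to 390 counts per tumor, had a standard error of 0.69. Pdgfd, with 22 counts in tumor 157, had one of 0.67.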
